A study of Arabidopsis thaliana with 8 samples.

Results

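ORA47, ZAT10 and AT4G27280 are 3 Arabidopsis genes of fast stress responses, each read by 1 probe set, a group of short array probes for 1 transcript. The array held 22746 tested probe sets, and 13513 of them were named for a single gene. The probe sets were 262211_at for ORA47 (locus AT1G74930), 261648_at for ZAT10 (AT1G27730, also named STZ) and 253915_at for AT4G27280. The genes were chosen by measured values: their levels in unchilled and chilled wild type, and in unchilled wild type against unchilled L20, were known when the set was made. Those comparisons are therefore described below without a test, and tests are given for cold in L20 and for L20 against wild type after cold. These tests use the unchilled L20 and chilled wild-type arrays again, so they are not independent of the choice.

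Expression was measured in whole seedlings with Affymetrix arrays, each carrying 1 sample. Wild type (ecotype Col-1) was compared with the transgenic line L20, each grown for 10 days at 22 °C and sampled either before cold or after 6 h at 4 °C, which makes 4 groups of 2 biological replicates. L20 overexpresses TabZIP6, a basic leucine zipper (bZIP) transcription factor of wheat. It is a single line, its background ecotype is not in its labels, and the promoter that drives TabZIP6 is not stated in the labels. Chilled seedlings were also sampled 6 h later than unchilled ones, so cold and elapsed time cannot be told apart. With only these sampling times, how fast any gene responded could not be seen.

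As background, jasmonates are plant hormones of wounding and defence, and calcium entering the cell is among the earliest signals of touch, wounding and cold. ORA47 is a transcription factor of the AP2/ERF family that activates genes of jasmonate synthesis. ZAT10 is a C2H2 zinc-finger protein with a repression motif, known to be induced by cold, salt and drought. AT4G27280 encodes a small calcium-binding protein with an EF hand, the loop that holds calcium, and is related to KIC, a calcium sensor that binds a kinesin motor protein.

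Chilled arrays of the lines were more alike within a replicate number than the replicates of a group. Wild type and L20 after cold correlated over all probe sets at 0.993 in replicate 1 and 0.992 in replicate 2, while replicates within a group correlated at 0.955 to 0.968 over the 4 groups. Array medians lay between 4.95 and 5.06 on the log2 scale. Upper quartiles were less level, from 6.28 in replicate 1 of unchilled wild type to 6.65 in replicate 1 of unchilled L20. RCA, the Rubisco activase of green tissue and the 1 of 8 shoot markers with a named probe set, had a log2 signal of at least 12.62 on every array, and none of the 8 root markers had one. Separate cultures of the replicates are not described, and p-values cover only how far these samples spread, which may be technical. An exact two-sided permutation test of 2 arrays against 2 cannot go below p = 0.333, so the tests come from limma, fitted over all probe sets with Benjamini-Hochberg adjustment and called at an adjusted p under 0.05.

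ORA47 was high in unchilled wild type and low in every other group. Its log2 signal was 8.91 and 8.29 in unchilled wild type (replicates 1 and 2), and 5.82 and 4.07 in unchilled L20. After cold it was 4.64 and 3.91 in wild type and 5.11 and 4.04 in L20. The unchilled wild-type arrays lay 2.46 or more above the other 6, and the arrays of those 6 overlapped between groups. Both replicate 2 arrays of L20 and the chilled replicate 2 array of wild type stood at about 4, below the median of their arrays. As whole seedlings were measured, fewer cells of a type and less RNA per cell cannot be told apart, here or for the other genes.

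As group means, ORA47 stood at 8.60 ± 0.44 in unchilled wild type, 4.95 ± 1.24 in unchilled L20, 4.57 ± 0.75 in chilled L20 and 4.27 ± 0.52 in chilled wild type (log2 signal, SD, n = 2). Only the gap between the first and the second of these exceeded the spread within groups. Unchilled L20 was 12.5-fold below unchilled wild type, a difference of -3.65, and of -3.08 and -4.21 within replicates 1 and 2. Without replicate 1 of unchilled L20 the difference was -4.52, and without its replicate 2 it was -2.77. By this difference of means ORA47 ranked number 1 of all 22746 probe sets among the decreases. For cold in wild type it ranked number 2, with a mean log2 difference of -4.32, and of -4.26 and -4.38 in the replicates. These ranks describe the values that chose the gene. No background level was available, so for arrays near 4 the folds are those of array signal, and the transcript may have been lower still.

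In L20, where ORA47 was already low, no response to cold was detectable. The log2 difference was -0.38 ± 0.63 (SE), with a 95% interval from -1.87 to 1.11, and limma gave an adjusted p = 1.00. It was -0.72 in replicate 1 and -0.03 in replicate 2. The unchilled L20 arrays were among those used in choosing the gene. Replicate 2 already stood at 4.07 before cold, so a fall could have been missed there. Unchilled L20 stood 0.67 above chilled wild type, 1.18 in replicate 1 and 0.17 in replicate 2, so the mean genotype difference before cold came to 84.4% of the mean cold difference of wild type. These differences share the unchilled wild-type arrays, and no test of that share was made.

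**Figure D1:**
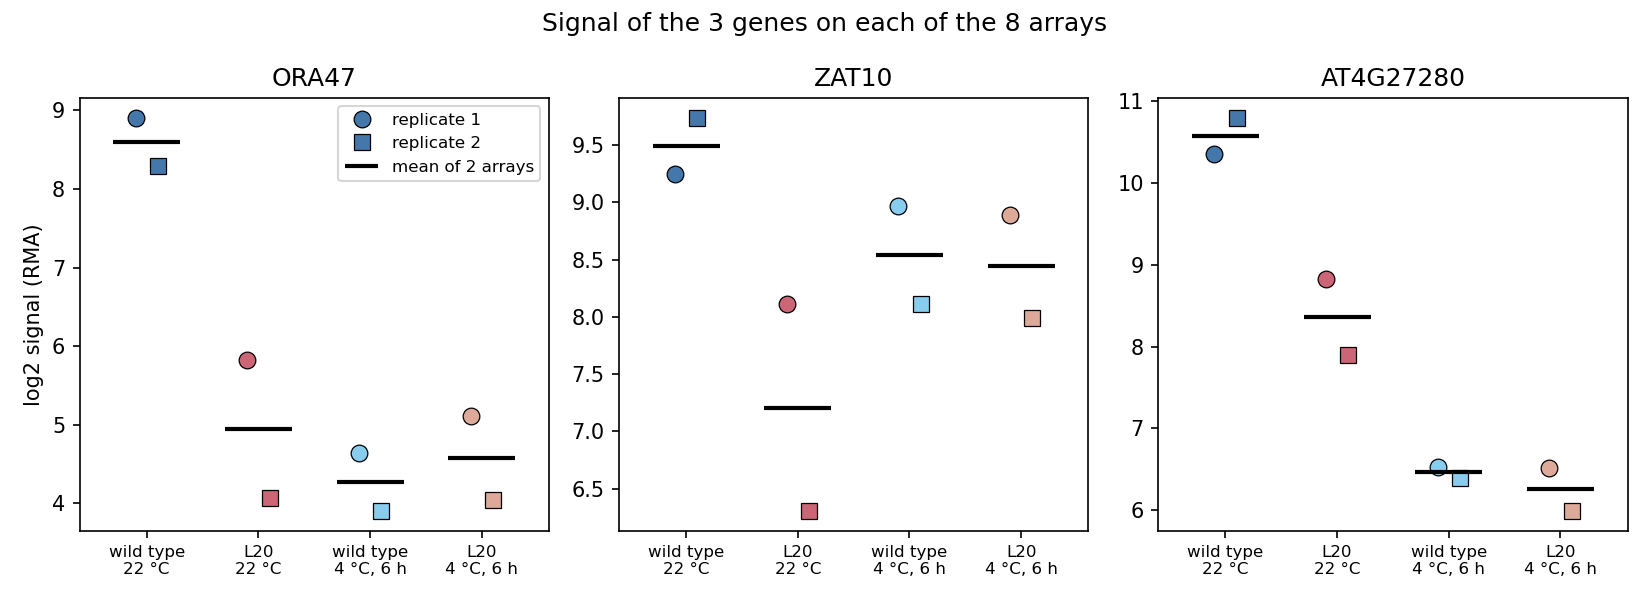
Log2 signal (y axis, a separate range in each panel) of ORA47, ZAT10 and AT4G27280 in the 4 groups (x axis), with circles for replicate 1, squares for replicate 2 and a line at the mean of the 2 arrays. The unchilled wild-type arrays are the highest for each gene; ORA47 is low in the other 3 groups, ZAT10 is lowest in unchilled L20, and AT4G27280 steps down from unchilled wild type to unchilled L20 to the chilled groups.

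AT4G27280 stood at 3 separate levels. Its log2 signal was 10.36 and 10.80 in unchilled wild type and 8.83 and 7.90 in unchilled L20. After cold it was 6.53 and 6.40 in wild type and 6.52 and 5.99 in L20. The arrays of unchilled wild type, of unchilled L20 and of the chilled groups did not overlap, and the chilled lines overlapped with each other. The share of all probe sets with this separation was not counted. Its upper step is among the comparisons by which the gene was chosen, so nothing is read from the separation. The group means were 10.58 ± 0.31, 8.36 ± 0.66, 6.46 ± 0.09 and 6.26 ± 0.37 in the order unchilled wild type, unchilled L20, chilled wild type and chilled L20 (log2 signal, SD, n = 2).

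Unchilled L20 was thus 4.66-fold below unchilled wild type in AT4G27280 signal, at a log2 difference of -2.22, with -1.54 in replicate 1 and -2.90 in replicate 2. In wild type the cold difference was 17.4-fold downwards, -3.84 and -4.40 in the replicates, and it ranked number 3 among the decreases of all probe sets. Like the ranks of ORA47, this rank describes values that chose the gene. AT4G27280 in unchilled L20 stood above chilled wild type, by 1.90 on average and by 2.30 and 1.50 in the replicates, against the 0.67, 1.18 and 0.17 of ORA47. The mean genotype difference before cold was 53.9% of the mean cold difference of wild type.

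In L20 the AT4G27280 signal was 4.31-fold lower after cold than before, with log2 differences of -2.31 and -1.91 in replicates 1 and 2. The mean difference was -2.11 ± 0.35 (SE), with a 95% interval from -2.93 to -1.28. In the main limma fit this missed the threshold (adjusted p = 0.0765), and with the replicate number as a block it passed (limma adjusted p = 0.0290). It also passed among probe sets with a mean log2 signal of at least 5 (0.0408) and after quantile normalization (0.0252), and over all 14 alternatives the limma adjusted p ran from 0.0252 to 0.274. Of all 22746 probe sets, limma called 0.378% for cold in L20 without the block and 2.55% with it. By size of the decrease AT4G27280 ranked number 39.

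ZAT10 followed another order, and its lowest level was in unchilled L20, not in the cold. Its log2 signal was 9.25 and 9.74 in unchilled wild type and 8.11 and 6.31 in unchilled L20. After cold it was 8.97 and 8.11 in wild type and 8.89 and 7.99 in L20. The unchilled wild-type arrays were again the highest, but only by 0.28. Replicate 2 of unchilled L20 was the lowest array by a wide margin, while replicate 1 of that group was level with replicate 2 of chilled wild type.

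Group means of ZAT10 were 9.49 ± 0.35 in unchilled wild type, 8.54 ± 0.60 in chilled wild type, 8.44 ± 0.64 in chilled L20 and 7.21 ± 1.28 in unchilled L20 (log2 signal, SD, n = 2). The chilled groups did not differ beyond their spread, and the arrays of both L20 groups overlapped. Unchilled L20 was 4.88-fold below unchilled wild type on average, at a log2 difference of -1.14 in replicate 1 and -3.43 in replicate 2. By the mean difference, known when the genes were chosen, ZAT10 ranked number 16 among the decreases, against number 20 for AT4G27280. Its size rests much on replicate 2 of unchilled L20: the log2 difference was -2.29 with all arrays, -1.38 without that array and -3.19 without replicate 1.

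The cold differences of ZAT10 pointed in opposite directions in the lines, and each starts from unchilled arrays on which the gene was chosen. The share of all probe sets with such opposite directions was not counted. In wild type the cold differences were -0.28 and -1.63 in replicates 1 and 2. In L20 they were 0.78 and 1.68, a mean of 1.23 ± 0.62 (SE) with a 95% interval from -0.24 to 2.71 and a limma adjusted p = 0.646. With the replicate block that interval ran from 0.10 to 2.37 and the limma adjusted p was 0.260, so the response of L20 missed the test either way. Without replicate 2 of unchilled L20 the mean difference was 0.33, and without replicate 1 of that group it was 2.14. Unchilled L20 minus chilled wild type was -1.33 (-0.86 in replicate 1 and -1.81 in replicate 2), whereas for ORA47 and AT4G27280 this difference was above 0.

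**Figure D2:**
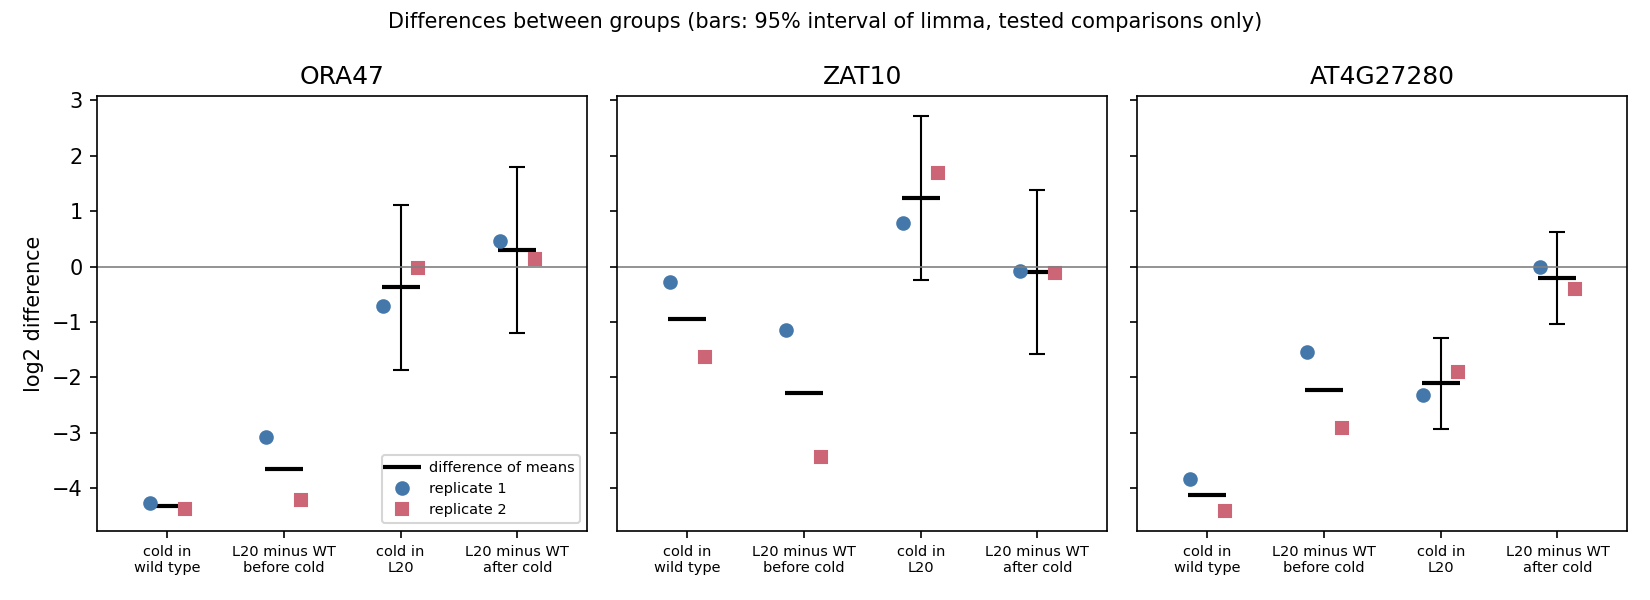
Log2 differences (y axis) of the 3 genes in 4 comparisons (x axis), with circles and squares for the difference within replicates 1 and 2, a black dash for the difference of means and bars for limma's 95% interval in the tested comparisons. Cold in L20 lies near 0 for ORA47, above 0 for ZAT10 and near -2.11 for AT4G27280, and all differences between the lines after cold lie close to 0.

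After cold the lines could not be told apart in any of the 3 genes. The log2 difference of L20 minus wild type was 0.30 for ORA47, with a 95% interval from -1.19 to 1.79. For ZAT10 it was -0.10, between -1.58 and 1.38, and for AT4G27280 -0.21, between -1.03 and 0.62. Each limma adjusted p was 1.00. Over all probe sets limma called 0% for this comparison, with and without the replicate block, and 19 of 22746 had an unadjusted p under 0.05 without it. The intervals of ORA47 and ZAT10 still allow a difference of over 2-fold in either direction, and that of AT4G27280 a lower level in L20 of that size. With the replicate block the intervals ran from -0.36 to 0.96 for ORA47 and from -0.95 to 0.53 for AT4G27280, both inside 2-fold, and from -1.24 to 1.04 for ZAT10.

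Set against each other, the cold difference of L20 minus that of wild type was 3.95 for ORA47 (3.54 and 4.35 in the replicates). It was 2.19 for ZAT10 (1.06 and 3.31) and 2.01 for AT4G27280 (1.53 and 2.50). These are differences of log2 differences. They contain the comparisons by which the genes were chosen, so they carry no test. For ORA47 and AT4G27280 the mean cold difference was negative in both lines and smaller in size in L20.

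**Figure D3:**
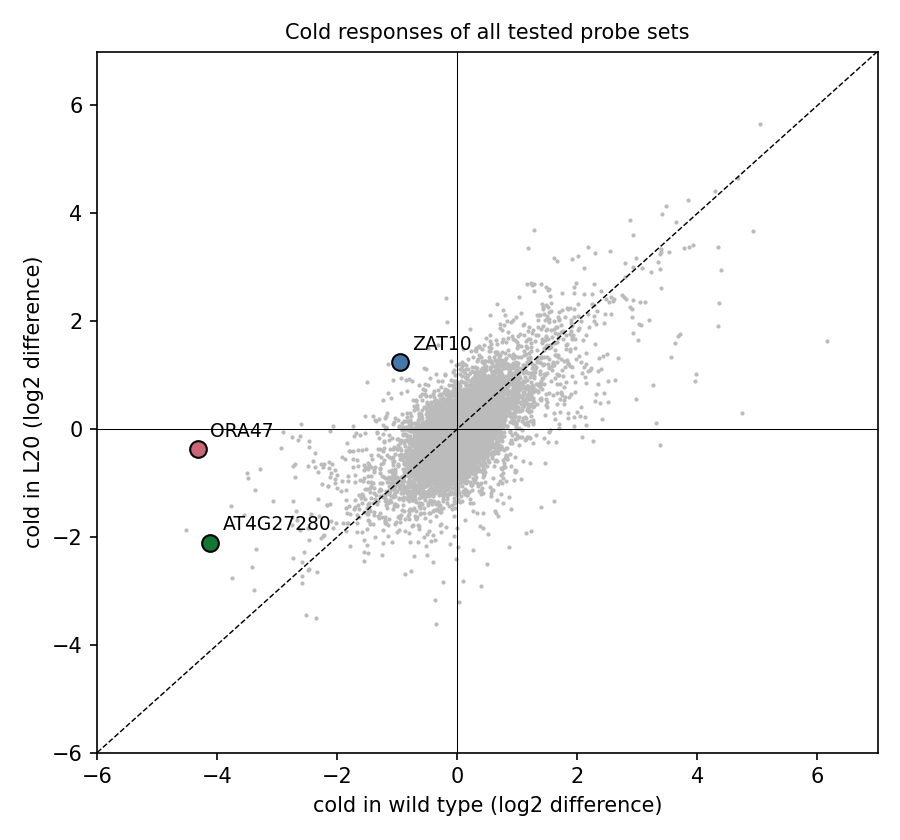
Log2 difference with cold in wild type (x axis) and in L20 (y axis), with a grey point for each of the 22746 probe sets and the 3 genes marked; the dashed line marks equal responses. All 3 lie above the dashed line, ORA47 at -4.32 and -0.38, AT4G27280 at -4.12 and -2.11, and ZAT10 at -0.95 and 1.23.

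The replicates of unchilled L20 were far apart for these genes. ORA47 was 1.75 higher in replicate 1 than in replicate 2 of that group and ZAT10 1.80 higher (log2 signal), gaps that 180 and 157 of all probe sets reached, or 0.791% and 0.690%. For AT4G27280 the gap was 0.93, which 7.94% of probe sets reached. The median gap over all probe sets was 0.29. In unchilled wild type replicate 1 minus replicate 2 was 0.62, -0.49 and -0.44 for ORA47, ZAT10 and AT4G27280, so replicate 1 was the higher array for ORA47 and the lower one for the others. After cold, replicate 1 was the higher array for each gene in each line, by 0.13 to 1.07. What separates the replicates was not tested.

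Over the 8 arrays ORA47 and AT4G27280 had similar profiles, at a Pearson r = 0.91 (0.93 with the mean of each replicate number removed). ZAT10 correlated with ORA47 at 0.68 and with AT4G27280 at 0.39. The arrays share groups and replicate numbers and fall into separate levels, so these are descriptions of likeness, given with no p. The 8 arrays also include the unchilled and chilled wild-type and unchilled L20 arrays by which the genes were chosen. A high r between the genes may therefore be built in by that choice, and nothing is read from it.

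Genes of like profile were taken as the 5 named genes with the highest Pearson r over the 8 arrays, among 1556 genes with an SD of at least 0.5. Closest to ORA47 were AR781 (r = 0.95) and BHLH101 (0.95), a transcription factor gene of iron deficiency. They were followed by AT3G10120 (0.94), AT1G72920 (0.92), which encodes a protein with a TIR domain as found in immune receptors, and AT1G05575 (0.91). All 5 had their highest group mean in unchilled wild type, in a smaller range than ORA47, and the order of the other groups varied. AR781 stood at 7.86 in unchilled wild type, 6.23 in unchilled L20, 5.64 in chilled wild type and 5.59 in chilled L20 (log2 signal). AT1G72920 came nearest to an on-and-off pattern, with 6.64 in unchilled wild type and 3.54 to 3.73 in the other groups. It was the only 1 of the 5 that was also among the closest 5 once the replicate means were removed.

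ZAT10 had the closest single match. AT3G22210 followed it at r = 0.99, with group means of 9.34 in unchilled wild type, 8.14 in unchilled L20, 8.80 in chilled wild type and 8.79 in chilled L20. Next came AT2G03420 (0.93), LrgB (0.90), which encodes the glycolate and glycerate transporter of the plastid, TET8 (0.90), a tetraspanin membrane protein gene, and AT4G24780 (0.88). All 5 were lowest in unchilled L20, in replicate 2. The first 3 of them stayed among the closest 5 without the replicate means.

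AT4G27280 had many more genes of like profile: 31 of the 1556 reached r = 0.9, against 8 for ORA47 and 3 for ZAT10. The closest were AT4G19160 (0.97), AT5G05250 (0.97), AT3G10120 (0.96), AT3G10020 (0.95) and AT5G56100 (0.95). AT5G05250 had group means of 5.87 in unchilled wild type, 5.06 in unchilled L20, 4.38 in chilled wild type and 4.32 in chilled L20, the same order of steps in a smaller range. AT4G19160 and AT5G05250 stayed among the closest 5 without the replicate means.

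**Figure D4:**
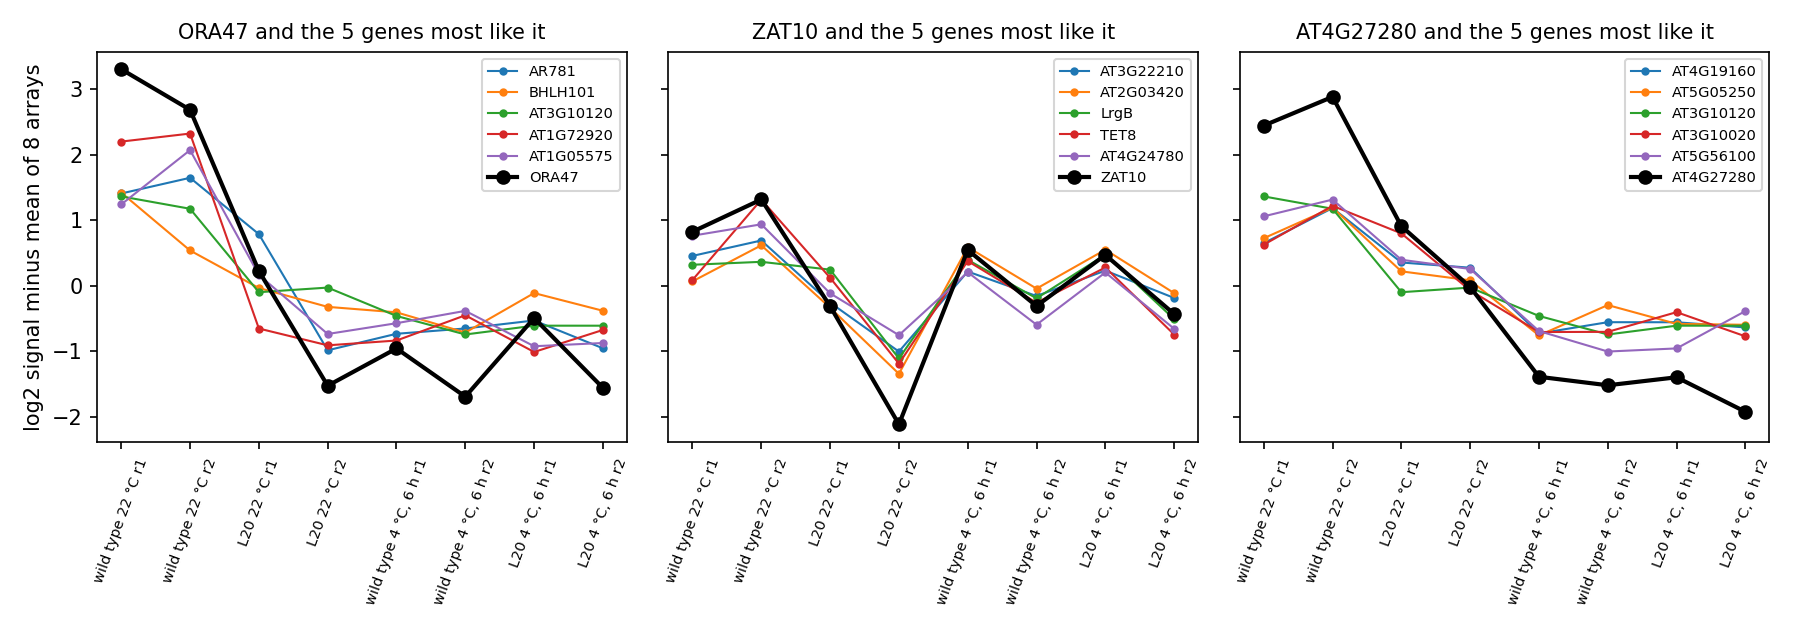
Log2 signal minus the mean of the 8 arrays (y axis) for each array (x axis, r1 and r2 for replicates), in black for ORA47, ZAT10 and AT4G27280 and in colour for the 5 genes most like each. Lines join arrays only to show the profile. The black line has the widest range in each panel, and the genes like ZAT10 dip in replicate 2 of unchilled L20.

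Both unchilled wild-type arrays were higher than the other 6 for all 3 genes. The same order held for 506 of 22746 probe sets, or 2.22%, and since the genes were chosen on these arrays nothing is read from it. The step from the lower of the unchilled wild-type arrays to the highest of the other 6 was at least 1 on the log2 scale for 25 probe sets, and 11 of these were named for a single gene. By the size of this step ORA47 ranked number 2 of all probe sets, AT4G27280 number 11 and ZAT10 number 113.

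The 9 other named genes with so large a step were picked after their values were seen. AT1G72920 had the largest, 2.65, and AT1G66090, also of the TIR class, had 1.15. AT1G47400, which encodes a small peptide of the iron-deficiency response, stood at 7.13 in unchilled wild type and at 5.05 to 5.21 in the other groups. AT1G23390, a kelch-repeat F-box gene of flavonoid control, went from 9.44 in unchilled wild type to 7.39 in unchilled L20 and to 5.67 and 5.96 in chilled wild type and L20, a stepped pattern as in AT4G27280. The others were AT3G10120, AT2G24550, AT1G05575, AT2G30600 and AT3G46600, with steps between 1.03 for AT3G46600 and 1.09 for AT2G24550, apart from a slightly larger one for AT3G10120.

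**Figure D5:**
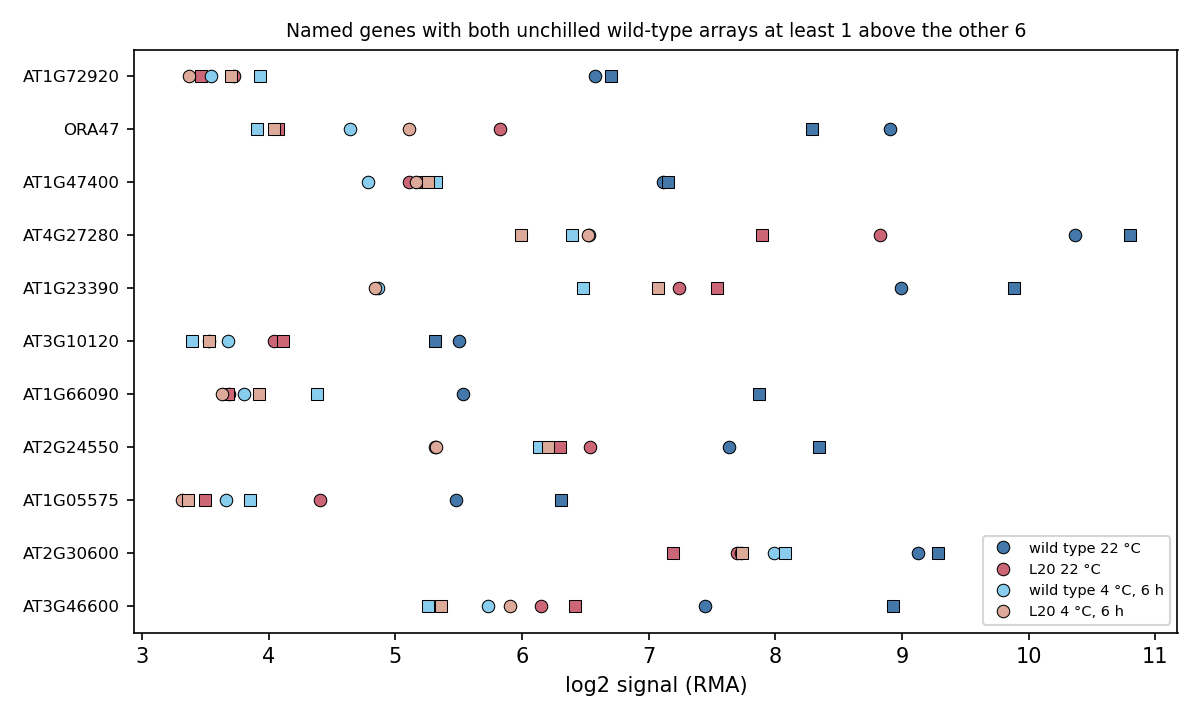
Log2 signal (x axis) of the 11 named genes (y axis) whose unchilled wild-type arrays both lay at least 1 above the other 6, with circles for replicate 1, squares for replicate 2 and a colour per group. The dark blue unchilled wild-type points stand to the right of all others; ORA47 and AT4G27280 are among the genes, ordered by the size of the step.

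Relatives and pathway partners of the 3 genes were read from 6 lists of 131 loci, of which only 27 had a probe set named for 1 gene. Limma called 0 of the 27 in each of the 4 comparisons, with and without the replicate block. For comparison, it called 0.532% of all probe sets for cold in wild type and 0.0176% for L20 against wild type before cold, or 1.57% and 0.167% with the block. At an unadjusted p under 0.05 there was 1 of 27 for cold in wild type, 1 for cold in L20, 2 for L20 against wild type before cold and 0 after cold. Of all probe sets, 6.63%, 9.73%, 5.54% and 0.0835% had such a p in these comparisons, so the counts of listed genes were near or below that background. The medians of the 27 log2 differences were -0.14, -0.05, -0.01 and 0.00 in that order, beside 0.03, 0.00, 0.04 and 0.00 over all probe sets.

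Of the AP2/ERF relatives of ORA47, 4 of 30 were measured. AT1G19210 was higher on both unchilled wild-type arrays than on the other 6, at 5.74 and 5.99 against 5.11 to 5.38, a much smaller scale. That order held for 2.22% of all probe sets and for CML45 of the EF-hand genes below, so nothing is read from it. The log2 differences of AT1G19210 were -0.55 ± 0.19 (SE) for cold in wild type and -0.63 ± 0.19 for L20 against wild type before cold. Neither passed (limma adjusted p = 0.525 and 0.607). AT1G44830, AT1G22810 and AT1G77640 differed by -0.27 to 0.10 over the 4 comparisons.

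Of the jasmonate genes, the 1 measured member of 17 for synthesis was OPCL1, which activates a jasmonate precursor. Its mean log2 signal was 6.76 in wild type both before and after cold, and it differed by -0.01 ± 0.43 (SE) between the unchilled lines, on the log2 scale. Among 23 genes of jasmonate signalling 3 were measured. MYC3 and MYC4, transcription factors of the pathway, differed by -0.14 ± 0.25 and 0.40 ± 0.84 (SE) with cold in wild type. MYC4 went from 5.25 to 6.51 in replicate 1 and from 4.74 to 4.29 in replicate 2. PDF1.2, a defensin gene of the jasmonate and ethylene response, differed by 0.48 ± 0.63 with cold in wild type. PDF1.2 differed by 1.16 ± 0.63 with cold in L20 (limma adjusted p = 0.691).

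The 4 of 13 measured C2H2 relatives of ZAT10 were ZAT4, ZAT5, ZAT9 and ZAT18. Only ZAT5 differed by over 0.2 in any comparison, from 5.52 in unchilled wild type to 5.02 in chilled wild type, and it missed the test (limma adjusted p = 1.00). None of the 4 had a group mean in unchilled L20 as far below wild type as ZAT10: their log2 differences there ran from -0.29 to 0.11.

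EF-hand and touch genes were the best covered, with 14 of 25 measured. KIC stood at 8.54 and 9.65 in unchilled wild type, 8.61 and 8.01 in unchilled L20 and 8.17 to 8.46 on the chilled arrays. Its log2 differences were -0.78 ± 0.38 (SE) with cold in wild type and -0.79 ± 0.38 between the unchilled lines, and neither passed (limma adjusted p = 0.899 and 0.968). CML44, a calmodulin-like gene, went from 5.49 in unchilled to 4.49 in chilled wild type, an adjusted p = 0.891 by limma, and differed by -0.75 ± 0.48 between the unchilled lines. CML36, another calmodulin-like gene, named here after its values were seen, was lower after cold in both replicates of both lines. The share of all probe sets with that order was not counted. The groups overlapped: wild type had 5.07 and 6.30 before cold and 4.05 and 5.18 after. L20 had 4.95 and 6.20 before cold and 4.47 and 4.98 after. The log2 difference of CML36 was -1.07 ± 0.60 (SE) in wild type and -0.85 ± 0.60 in L20. Neither passed: the limma adjusted p was 0.9999 and 0.842 without the replicate block, and 0.0762 and 0.103 with it. CML45 differed by -0.38 ± 0.16 between the unchilled lines and CML39 by 0.49 ± 0.18, the opposite direction (limma adjusted p = 0.901 and 0.825). WRKY53, the 1 measured of 23 other early wound and stress genes, differed by -0.56 ± 0.41 with cold in wild type and by -0.19 between the unchilled lines.

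Genes next to the 3 on their chromosomes were also read, a choice made after the data were seen, using the gene order of RefSeq assembly TAIR10.1. Of the 3 nearest protein-coding genes on each side, 4 of 6 were measured for ORA47, 1 of 6 for ZAT10 and 5 of 6 for AT4G27280. Limma called 0 of these 10 in any of the 4 comparisons, and at an unadjusted p under 0.05 there was 1, for cold in L20, where 9.73% of all probe sets had such a p. The direct neighbours AT4G27270 and AT4G27290 of AT4G27280 differed by -0.29 and 0.20 with cold in wild type and by -0.05 and -0.04 between the unchilled lines. ALDH10A8, the neighbour of ORA47 on its other side from AT1G74929, which had no named probe set, differed by -0.31 with cold in wild type and by 0.51 between the unchilled lines. WES1, also named GH3.5, an auxin-conjugating enzyme gene near AT4G27280, stood the other way between the unchilled lines, at 9.34 in L20 against 7.46 in wild type. It missed the test there (limma adjusted p = 0.910), and with the replicate block limma called 1 of the 10 neighbours in that comparison and 1 for cold in L20, beside 0.167% and 2.55% of all probe sets.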

How the data were processed

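The authors deposited 1 table of log2 signals for 22810 probe sets on 8 arrays, made with RMA (background correction, normalization between arrays and summary of probes) per the submitters' processing notes; no version is named there. Such normalization makes changes relative to the bulk of the genes. Sample titles gave the groups and replicate numbers. The 64 control probe sets were left out. Names came from the platform annotation through Entrez identifiers to RefSeq (13436 of 13513 single-gene probe sets matched); 503 probe sets with several genes and 8730 with none stayed unnamed. For a gene with several probe sets the one with the highest mean was used.

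The test was limma 3.58.1 in R 4.3.3 (a mean per group over 8 arrays, eBayes, two-sided, Benjamini-Hochberg over 22746). It was also run on simulated data drawn without pairing by replicate number, so that run does not cover the pairing described below. The members and lists were chosen with earlier results of these data known. Alternatives were the replicate block, trend and robust eBayes, a mean signal of at least 5, quantile normalization, median centring, fits of 2 groups, and leaving out each array. Listed genes were named by smallest p, up to 4 a list, plus KIC and AT1G19210. Replicate numbers pair the arrays: the differences of replicate 1 minus 2 correlated at 0.341 to 0.837 between every pair of groups, which comes from the data and not from the labels. The number of arrays limits the precision.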

Additional observations from a re-analysis of the deposited data

Results flagged for a closer look

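ZAT10 was flagged because its cold difference was downwards in both replicates of wild type and upwards in both replicates of L20. How many of all probe sets have such opposite directions was not counted, so the pattern may not be particular to ZAT10. The cold difference of L20 exceeded that of wild type by 2.19 on the log2 scale, 1.06 in replicate 1 and 3.31 in replicate 2. The difference between the lines was not tested, since it contains the comparisons by which the gene was chosen. Both cold differences start from unchilled arrays used in that choice, so their opposite directions are not independent of it. For ZAT10, L20 minus wild type was -2.29 before cold and -0.10 after it. The replicates of unchilled L20 were 1.80 apart for ZAT10. The cold difference of L20 was 1.23 with all arrays, 0.33 without replicate 2 of that group and 2.14 without replicate 1.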

How the results depend on the processing

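For the 3 genes, cold in wild type and L20 minus wild type before cold, which carry no test, kept their direction in all 14 alternatives. The block, the eBayes setting, the signal filter, the fit of 2 groups and arrays outside a comparison cannot move a log2 difference, so only quantile normalization, median centring and the 4 arrays compared bear on its size. The cold response of AT4G27280 in L20 passed limma with the replicate block (-2.11), at a mean signal of at least 5 (-2.11) and after quantile normalization (-2.01); the cause was not tested. The block changed no other tested call of the 3 genes. Without 1 array, L20 minus wild type before cold ran from -4.52 to -2.77 for ORA47, -3.19 to -1.38 for ZAT10 and -2.68 to -1.76 for AT4G27280, the ends being replicates 1 and 2 of unchilled L20 left out.

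Small differences changed sign without 1 array, where fewer samples were fitted, and none was called. Cold in L20 for ORA47 ran from -1.25 to 0.50, with 0.16 without replicate 2 of chilled L20. L20 minus wild type after cold ran from -0.23 to 0.83 for ORA47 (-0.07 without replicate 2 of chilled wild type), from -0.55 to 0.35 for ZAT10 (0.33 without replicate 1 of chilled wild type) and from -0.47 to 0.057 for AT4G27280.

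Counts of called probe sets depended on the setting. For cold in wild type the count was 121, with 357 under the block, 183 after quantile normalization, 65 in a fit of 2 groups and 0 (without replicate 2 of chilled wild type) to 91 without 1 array. Leaving out the chilled wild-type replicate 1 gave 6, and leaving out an unchilled wild-type array gave 15. For cold in L20 it was 86, with 580, 204, 0 and 0 (without replicate 1 of unchilled L20) to 34 (without an unchilled wild-type array), and 138 at a mean signal of at least 5. For L20 minus wild type before cold it was 4, with 38, 17 and 1, 0 whichever of the 8 arrays was left out, and 8 at that minimum. After cold limma called 0 in all 14 alternatives, where 6 to 129 probe sets had an unadjusted p under 0.05. Background per probe was not analysed, so how far the low ORA47 values lie above background is unknown.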
